A study of Mus musculus with 18 samples.

Results

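Antigen presentation genes were followed across liver arrays of mice with and without AIM, the apoptosis inhibitor of macrophage encoded by Cd5l. The gene set held 10 members, 8 of class II presentation (H2-Aa, H2-Ab1, H2-Eb1, Cd74, H2-DMa, H2-DMb1, Ciita and Ctss) and 2 of class I presentation (B2m and Tap1). They were named by symbol, with earlier results of these data known. Each gene was read from its brightest probe set, a group of short oligonucleotides on the array that together give 1 intensity. Of the 10 members, 9 had a value among the 14691 genes tested, and all 9 passed the filter on dim probe sets. H2-DMb1 had none of its own, because its only 2 probe sets were annotated to H2-DMb2 as well.

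The 18 arrays fell into 6 groups of 3, all of C57BL/6 liver: AIM-KO (AIM-/-) and WT (AIM+/+) mice on normal chow, after 12 weeks of a high-fat diet (HFD) and after 20 weeks of it. The AIM-KO animals lack AIM in every tissue as far as the labels say, and no other allele or agent is named. The labels call the samples biological replicates without saying that the animals were separate, and p-values therefore measure only the spread between these samples. Ages are not given, so time on the diet and age cannot be told apart.

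As background, class II molecules are pairs of an alpha and a beta chain that carry peptides from taken-up proteins to CD4 T cells, and they are made mainly by dendritic cells, macrophages and B cells. The invariant chain Cd74 holds the new molecule until the protease cathepsin S (Ctss) trims it, H2-DM exchanges the remaining fragment for peptide, and the coactivator Ciita turns the genes of this pathway on. Class I molecules are made by nearly all cells, hepatocytes included: they carry B2m as a shared light chain and take peptides that Tap1 and its partner pump into the endoplasmic reticulum.

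Several arrays stood apart. Cd5l lay between 4 and 23.5 on the AIM-KO arrays and between 703 and 1927 on the WT arrays, so each array matched its genotype label. Xist, the transcript of the silenced X chromosome in female cells, was high on the whole AIM-KO group of 20 weeks (2922 to 2974) and on replicate 2 of WT at 20 weeks (3050), against 7.8 to 26.2 on the other 14 arrays. The labels give no sex. Apart from that WT array, the AIM-KO group at 20 weeks and high Xist cannot be told apart. The ratio of the 3' to the 5' actin probe set, which is low where RNA is intact, was 2.51 ± 0.137 in AIM-KO and 3.47 ± 0.855 in WT at 20 weeks (SD, n = 3 each). Array medians ranged from 15 to 21.1, highest on AIM-KO 20 weeks replicate 3. Arrays correlated at 0.955 to 0.98 within groups and at 0.938 to 0.977 between groups.

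Upstream sequences are shown here because class II genes and B2m are known to share short promoter elements, among them an inverted CCAAT box and part of the cyclic AMP response element (CRE). RefSeq promoters (GRCm38.p6) were matched by symbol for 7 of the 10 members. H2-Ab1, Cd74 and Ciita were not among them. H2-DMa and Ctss were matched but their sequences are not printed. The lines give the 110 bases before the annotated start, 5′ to 3′ on the strand of the gene. Capitals mark GATTGG, the CCAAT box as it reads in these genes, and TGACG, the CRE part, on either strand.
H2-Aa, chr17:34287824-34287933, minus strand: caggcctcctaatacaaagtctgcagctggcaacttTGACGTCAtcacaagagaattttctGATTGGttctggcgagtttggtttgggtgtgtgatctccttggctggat
H2-Eb1, chr17:34305757-34305866, plus strand: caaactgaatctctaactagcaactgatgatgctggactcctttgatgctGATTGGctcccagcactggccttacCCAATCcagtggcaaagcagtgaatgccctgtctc
H2-DMb1, chr17:34153081-34153190, plus strand: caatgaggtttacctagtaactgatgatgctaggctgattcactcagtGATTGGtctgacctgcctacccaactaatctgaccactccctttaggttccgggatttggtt
B2m, chr2:122147577-122147686, plus strand: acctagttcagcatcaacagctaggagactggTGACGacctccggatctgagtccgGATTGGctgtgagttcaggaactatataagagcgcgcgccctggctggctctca
Tap1, chr17:34187446-34187555, plus strand: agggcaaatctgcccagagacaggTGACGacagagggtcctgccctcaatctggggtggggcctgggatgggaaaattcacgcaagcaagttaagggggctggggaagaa

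GATTGG on the gene's own strand began 49 bases before the start of H2-Aa, 54 before that of B2m, 60 before that of H2-Eb1 and 62 before that of H2-DMb1. H2-Eb1 held it on the opposite strand too, at 35 bases. Tap1 had no match within 110 bases and one on the opposite strand at 222 bases. Of the 2 matched members not printed, H2-DMa held GATTGG only at 199 bases and Ctss did not hold it within 250 bases. Neither held TGACG within 250 bases. Of the 7 matched members, 4 held GATTGG and 3 held TGACG in the 110 bases. TGACG began 74 bases before the start of H2-Aa, where it overlaps its own reverse complement at 71 bases, 78 before that of B2m and 86 before that of Tap1. Among all 32851 promoters of the table, 9.25% held GATTGG and 11.1% held TGACG in these 110 bases on either strand, and 1.36% held both, as H2-Aa and B2m did. The core of the interferon-stimulated response element (GAAA, any 2 bases, GAAA) was held by 2.98% of all promoters within 250 bases, among them B2m at 139 bases and Ctss at 21 bases. These matches are letters in a window and not measured binding.

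The chains that form the class II molecule had the widest spread between groups. H2-Aa, the alpha chain of I-A, read 956, 463.5 and 850.5 on the AIM-KO chow arrays, 2471, 2238 and 2120 at 12 weeks, and 753, 1102 and 387 at 20 weeks. In WT livers it read 505, 471 and 634 on chow, 1463, 1314 and 949 at 12 weeks, and 2211, 1774 and 1484 at 20 weeks. Every AIM-KO array at 12 weeks lay above every AIM-KO array on chow or at 20 weeks, and every WT array on the diet lay above every WT chow array. By group mean H2-Aa was highest in AIM-KO at 12 weeks (2276 ± 178), then WT at 20 weeks (1823 ± 366), WT at 12 weeks (1242 ± 265), AIM-KO on chow (757 ± 259), AIM-KO at 20 weeks (747 ± 357) and WT on chow (537 ± 86.3; SD, n = 3 each). In that order only the WT groups at 20 and 12 weeks did not overlap with their neighbour, and that step was not past the test described below.

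H2-Ab1, the beta chain of I-A, read 163, 100.3 and 142 on the AIM-KO chow arrays, 378, 343 and 318 at 12 weeks, and 167, 245 and 109 at 20 weeks. In WT livers it read 126, 111 and 105 on chow, 293, 209 and 185 at 12 weeks, and 238, 317 and 295 at 20 weeks. The 3 AIM-KO arrays at 12 weeks were the brightest of all 18, and the AIM-KO arrays on chow and at 20 weeks overlapped. H2-Eb1, the beta chain of I-E, read 253, 109 and 235 on the AIM-KO chow arrays, 611, 577 and 608 at 12 weeks, and 237, 385 and 139.9 at 20 weeks. In WT livers H2-Eb1 read 121, 122 and 149.9 on chow, 439.9, 298 and 269 at 12 weeks, and 354, 449 and 403 at 20 weeks. C57BL/6 mice are known to lack a working I-E alpha chain, so this beta chain reports the gene's RNA and not a surface molecule.

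Cd74, the invariant chain, read 77.1, 63.4 and 84.3 on the AIM-KO chow arrays, 152, 174 and 180.0 at 12 weeks, and 63.8, 94.9 and 81.1 at 20 weeks. In WT livers Cd74 read 71.1, 62.7 and 70.4 on chow, 121, 126 and 85.6 at 12 weeks, and 106, 114 and 135 at 20 weeks. Its AIM-KO arrays at 12 weeks lay above all others, as for H2-Ab1 and H2-Eb1. H2-DMa, the alpha chain of the peptide exchanger, averaged 36.5 ± 8.69 on chow, 72.3 ± 11.1 at 12 weeks and 40.8 ± 12.5 at 20 weeks in AIM-KO livers. In WT livers it averaged 33.6 ± 7.26, 54.1 ± 10.6 and 61.2 ± 11.1 at the same times (SD, n = 3 each). The 2 probe sets that H2-DMb1 shares with H2-DMb2 had untested differences of 1.12 and 1.51 (log2, HFD minus chow) in AIM-KO at 12 weeks, of 1.14 and 1.36 in WT at 20 weeks, and of -0.36 and 0.36 in AIM-KO at 20 weeks. These values cannot be assigned to either gene.

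Ctss, which cuts the invariant chain, was brighter and less regular. It read 565, 467 and 625 on the AIM-KO chow arrays, 941, 916 and 1068 at 12 weeks, and 833, 954 and 565 at 20 weeks. In WT livers it read 657, 545 and 661 on chow, 1181, 1276 and 752 at 12 weeks, and 1617, 1106 and 823 at 20 weeks. Ciita, the coactivator, was dim throughout, between 8.0 and 31.2 on the 18 arrays and brighter on average than 50.9% of probe sets. All of its groups on the diet overlapped with chow in the same genotype.

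Of the class I members, B2m was brighter than 99.9% of probe sets and nearly level. It averaged 8339 ± 933 on chow, 8001 ± 363 at 12 weeks and 7869 ± 360 at 20 weeks in AIM-KO livers, and 7921 ± 395, 7960 ± 771 and 7294 ± 174 at the same times in WT livers (SD, n = 3 each). The brightest probe set of each array read between 10003 and 16640, so B2m lay near the top of the measured range, where intensities can be compressed; this was not tested. Tap1, the peptide pump, read 67.9, 74.0 and 71.0 on the AIM-KO chow arrays, 136, 140.1 and 134 at 12 weeks, and 120.0, 106 and 99.1 at 20 weeks. In WT livers Tap1 read 63.2, 66.8 and 49.2 on chow, 117, 103 and 98.1 at 12 weeks, and 115, 142 and 109 at 20 weeks. Every diet group of Tap1 lay above chow of the same genotype.

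**Figure D1:**
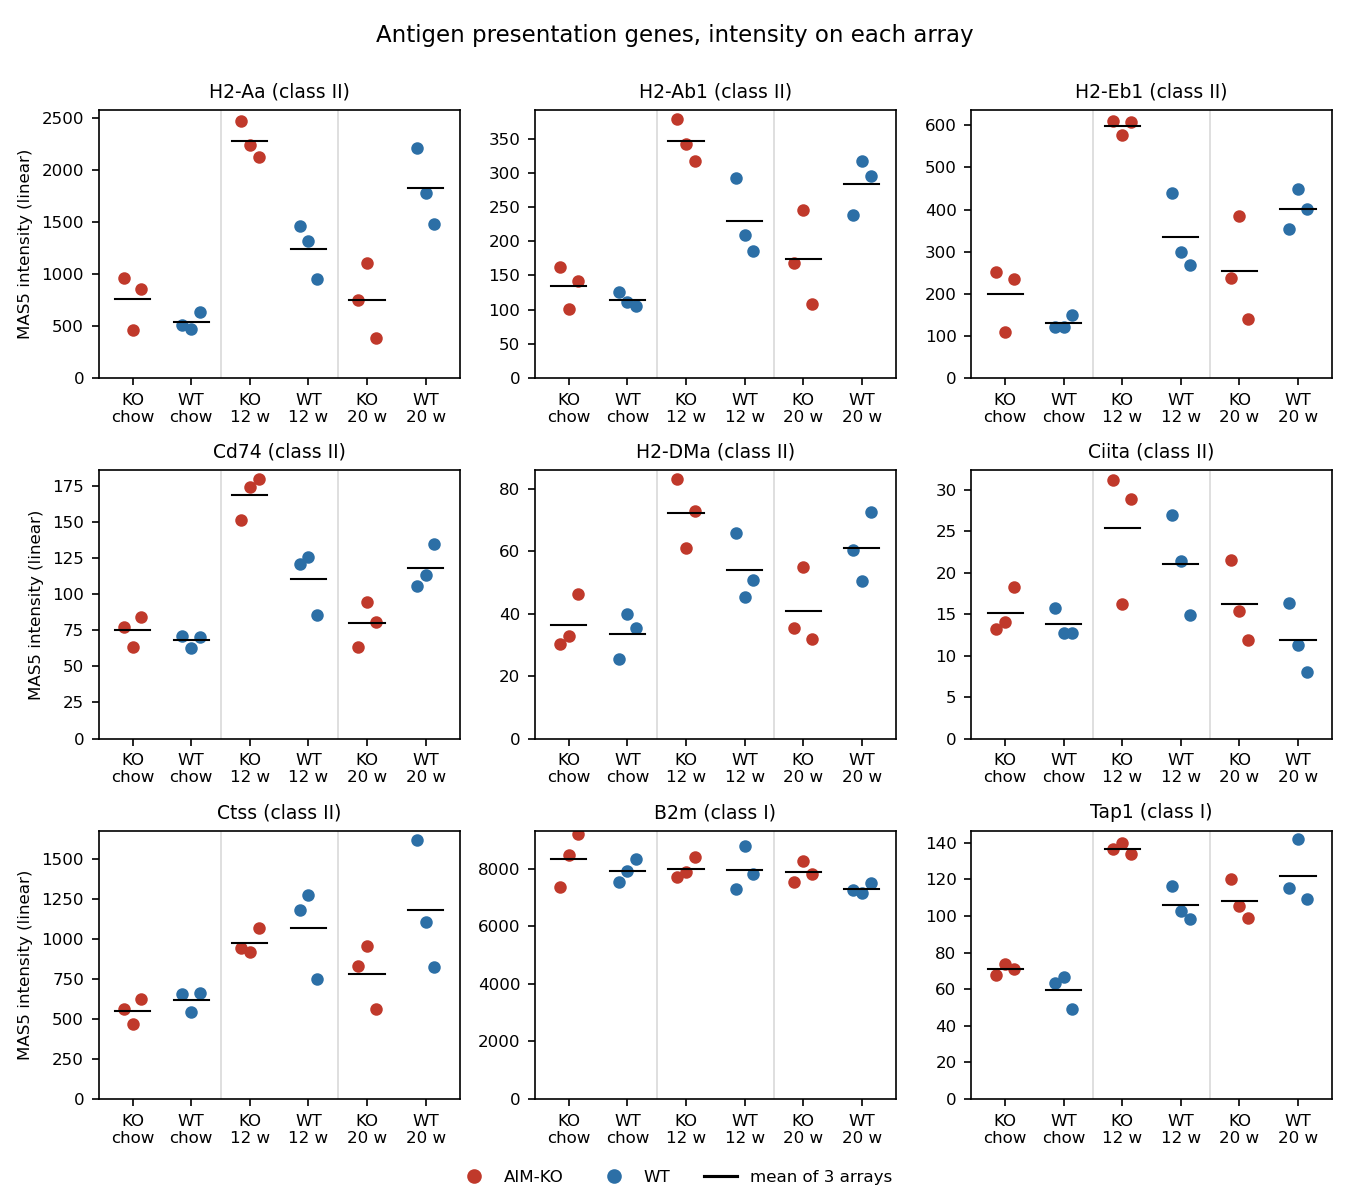
Linear MAS5 intensity (vertical axes from 0) of the 9 members with a value, 1 point per array and a line at the mean of 3 arrays, for AIM-KO (red) and WT (blue) livers on chow and after 12 and 20 weeks (w) of the high-fat diet. The AIM-KO arrays at 12 weeks are the brightest for H2-Ab1, H2-Eb1 and Cd74, and group means of B2m lie between 7294 and 8339.

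After 12 weeks of the high-fat diet the class II genes were higher in AIM-KO livers, the invariant chain and the peptide exchanger among them. Changes below are differences of log2(intensity + 3.3) with their standard error, tested with limma and adjusted over all 14691 genes, and calls were made at adjusted p below 0.05. In AIM-KO livers 6 of the 7 class II members were called higher and none lower, where 11.4% of all genes were called higher. H2-Eb1 rose by 1.66 ± 0.30 (adjusted p = 0.000813), H2-Aa by 1.65 ± 0.30 (0.000777), H2-Ab1 by 1.36 ± 0.23 (0.000535) and Cd74 by 1.14 ± 0.17 (0.000178). H2-DMa rose by 0.94 ± 0.23 (0.00836) and Ctss by 0.82 ± 0.23 (0.0167), while Ciita had a change of 0.60 ± 0.30 (adjusted p = 0.199). These 6 lay wholly above chow, as did 20.4% of all genes. The median over the class II members was 1.14, and that over all genes was 0.04. Tap1 rose by 0.92 ± 0.14 (0.000214), and B2m had a change of -0.05 ± 0.09 (adjusted p = 0.766). The call of Ctss was lost without AIM-KO chow replicate 2 or AIM-KO 12 weeks replicate 3, with adjusted p up to 0.0775.

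In WT livers at 12 weeks 4 of 7 class II members were called higher, where 3.52% of all genes were. H2-Eb1 rose by 1.31 ± 0.30 (adjusted p = 0.0144), H2-Aa by 1.19 ± 0.30 (0.0232), H2-Ab1 by 0.96 ± 0.23 (0.0207) and Cd74 by 0.66 ± 0.17 (0.0312). Ctss had a change of 0.75 ± 0.23 (0.0646), H2-DMa of 0.64 ± 0.23 (0.122) and Ciita of 0.49 ± 0.30 (0.416). The median was 0.75, against -0.00 over all genes. For 6 of the 7, all but Ciita, the diet group lay wholly above chow, as it did for 12.6% of all genes. Tap1 rose by 0.80 ± 0.14 (0.00238), and B2m had a change of 0.00 ± 0.09 (0.991). These calls rested on few arrays: the count was 0 without WT chow replicate 2 or WT 12 weeks replicate 1, and 2 without WT chow replicate 1, WT chow replicate 3 or WT 12 weeks replicate 2. The call of H2-Ab1 was lost with the mean of its probe sets (0.80, adjusted p = 0.162) and that of Cd74 with only the compared groups fitted (adjusted p = 0.0749). The call of Tap1 was kept without any 1 of the 6 arrays compared.

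After 20 weeks no class II gene was called against chow in AIM-KO livers, and most were higher in WT livers; the difference between the genotypes is tested further on. In AIM-KO livers at 20 weeks none of the 7 class II members was called by limma, where 4.29% of all genes were called higher, and none had an unadjusted p under 0.05. None lay wholly above chow, where 13.6% of all genes did. Their median change was 0.13, with H2-Aa at -0.08 ± 0.30 (adjusted p = 0.931), H2-Ab1 at 0.31 ± 0.23 (0.52), H2-Eb1 at 0.32 ± 0.30 (0.623), Cd74 at 0.08 ± 0.17 (0.861) and Ctss at 0.48 ± 0.23 (0.246). The 95% interval of H2-Aa ran from -0.70 to 0.55. Tap1 alone of the 9 was called, with a rise of 0.58 ± 0.14 (0.0168). That call was lost without AIM-KO chow replicate 1, AIM-KO 20 weeks replicate 1 or replicate 2, and with the Xist term, where the change was 0.25 (adjusted p = 0.688).

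In WT livers at 20 weeks 6 of 7 class II members were called higher, where 8.72% of all genes were. H2-Aa rose by 1.75 ± 0.30 (adjusted p = 0.000597), H2-Eb1 by 1.59 ± 0.30 (0.00147), H2-Ab1 by 1.28 ± 0.23 (0.00112), Ctss by 0.88 ± 0.23 (0.0141), H2-DMa by 0.81 ± 0.23 (0.0244) and Cd74 by 0.76 ± 0.17 (0.00605). Ciita had a change of -0.20 ± 0.30 (0.738). The other 6 lay wholly above chow, as did 15.4% of all genes, and the class II median was 0.88. Tap1 rose by 0.99 ± 0.14 (0.00013), and B2m, whose 3 arrays all lay below WT chow (13.7% of all genes did), had a change of -0.12 ± 0.09 (0.464). With the actin ratio as a term the calls of Ctss and H2-DMa were lost (adjusted p = 0.0527 and 0.0756), and leaving out 1 array left 4 to 6 class II calls. With a term for high Xist, H2-Aa stood at 1.76 and all 6 calls were kept.

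**Figure D2:**
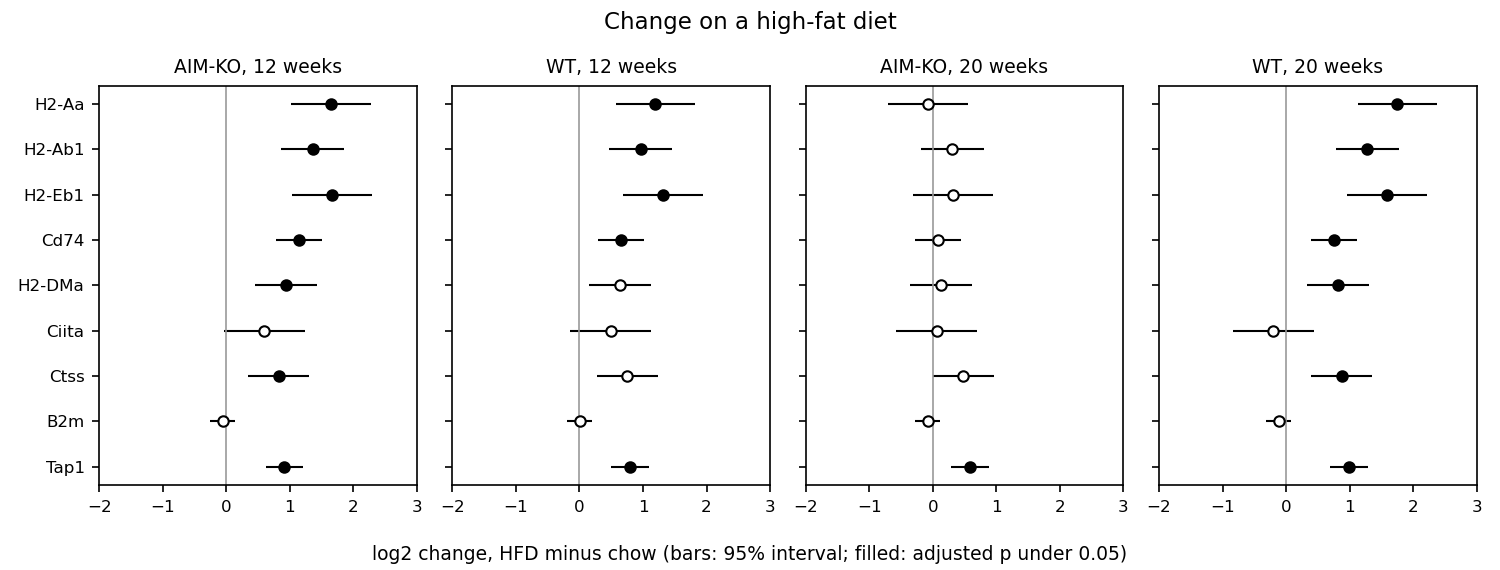
Log2 change on the high-fat diet minus chow for each member (horizontal axis) in AIM-KO and WT livers at 12 and 20 weeks, with 95% intervals and filled points where the adjusted p was under 0.05. Class II members lie right of 0 in both genotypes at 12 weeks and in WT at 20 weeks, except Ciita in WT at 20 weeks. In AIM-KO at 20 weeks they lie between -0.08 (H2-Aa) and 0.48 (Ctss), and none is filled.

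Between 12 and 20 weeks the class II chains fell in AIM-KO livers. H2-Aa fell by 1.72 ± 0.30 (adjusted p = 0.00553), H2-Eb1 by 1.34 ± 0.30 (0.0189), Cd74 by 1.06 ± 0.17 (0.00469) and H2-Ab1 by 1.05 ± 0.23 (0.0183). These 4 of 7 were called lower, where 2.12% of all genes were, and for them and H2-DMa (-0.80 ± 0.23, adjusted p = 0.0667) the 20 week arrays lay wholly below those of 12 weeks, as they did for 15.5% of all genes. Tap1 had a change of -0.33 ± 0.14 (0.24), Ctss of -0.34 ± 0.23 (0.496) and B2m of -0.02 ± 0.09 (0.937). H2-Aa and Cd74 kept their calls without any 1 of the 6 arrays compared. H2-Ab1 and H2-Eb1 lost theirs without AIM-KO 12 weeks replicate 1 or 2, or AIM-KO 20 weeks replicate 1 or 3, which left 2 calls. With the Xist term the change of H2-Aa was -1.69 and that of Cd74 -0.99, with adjusted p = 0.506 and 0.504, and no class II call was left. That term rests on WT 20 weeks replicate 2 as the only Xist-high array of a mixed group. On the Xist-high arrays of 20 weeks H2-Aa read 753, 1102 and 387 in AIM-KO and 1774 in WT, H2-DMa read 35.4, 55.1 and 31.9 in AIM-KO and 50.5 in WT, and Ciita read 21.6, 15.4 and 11.9 in AIM-KO and 11.3 in WT. The part of what goes with high Xist in the change was not tested.

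In WT livers no member was called between 12 and 20 weeks, where 0.0204% of all genes were, and 1 member (Ciita) had an unadjusted p under 0.05. H2-Aa had a change of 0.56 ± 0.30 (adjusted p = 0.679), with every array of 20 weeks above those of 12 weeks (5.44% of all genes), and Cd74 of 0.10 ± 0.17 (0.934). The difference between the genotypes in this step was added after the values were seen. H2-Aa (-2.28 ± 0.42, adjusted p = 0.0139), Cd74 (-1.16 ± 0.24, 0.0262) and H2-Ab1 (-1.37 ± 0.33, 0.0476) were called lower in AIM-KO, where 1.04% of all genes were. H2-Eb1 had a difference of -1.63 ± 0.43 (0.0652) and B2m of 0.10 ± 0.13 (0.823). Leaving out 1 of the 12 arrays left 0 to 4 calls, none without AIM-KO 12 weeks replicate 1 or 2, WT 12 weeks replicate 3 or WT 20 weeks replicate 1. The count was 0 with the Xist term, with H2-Aa at -2.26, and 1 with the actin term. The call of H2-Ab1 was lost in 6 of the 10 other settings.

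**Figure D3:**
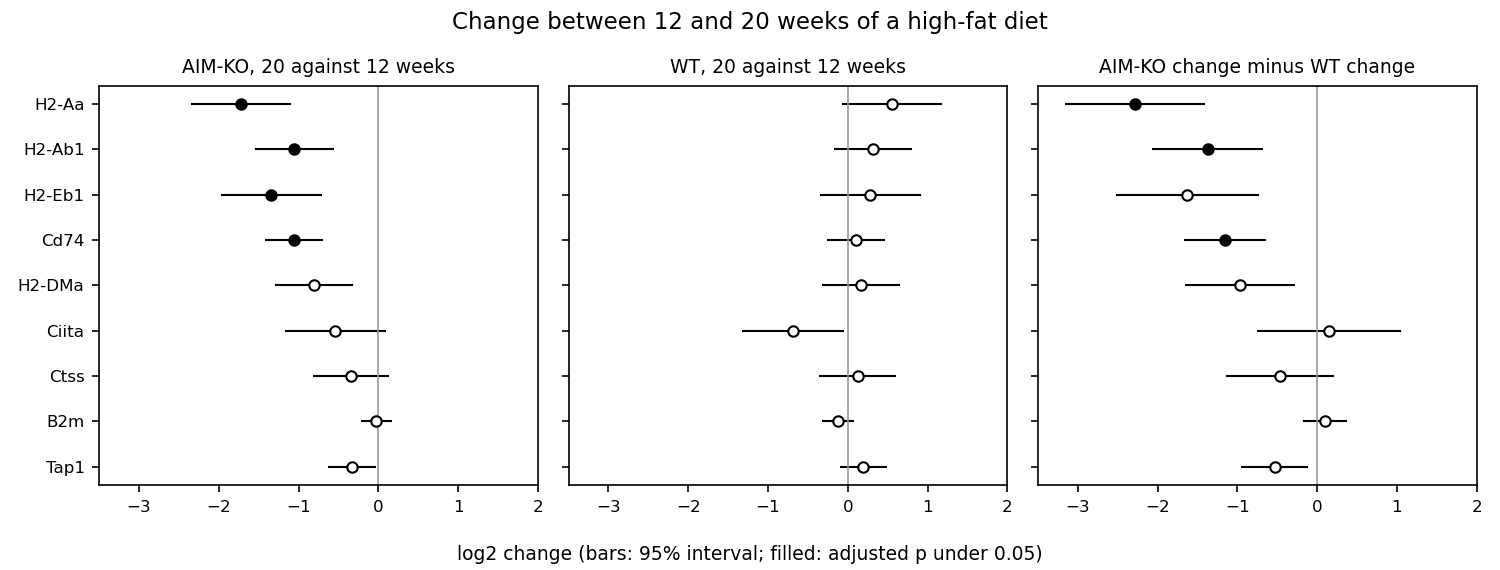
Log2 change from 12 to 20 weeks of the high-fat diet for each member in AIM-KO and WT livers, and the AIM-KO change minus the WT change, with 95% intervals and filled points where the adjusted p was under 0.05. In AIM-KO livers H2-Aa, H2-Ab1, H2-Eb1 and Cd74 are filled and left of 0, and in WT livers no point is filled.

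Set directly against WT at the same diet, AIM-KO livers had no member past the test. On chow, 0.0272% of all genes were called by limma, no member had an unadjusted p under 0.05, and H2-Aa had a difference of 0.44 ± 0.30 (adjusted p = 0.796). Tap1 was the one member whose AIM-KO arrays all lay above WT on chow, as for 4.86% of all genes. At 12 weeks H2-Aa differed by 0.89 ± 0.30 (0.343), H2-Eb1 by 0.86 ± 0.30 (0.385), H2-Ab1 by 0.61 ± 0.23 (0.446), Cd74 by 0.61 ± 0.17 (0.231) and Tap1 by 0.37 ± 0.14 (0.449). For these 5 every AIM-KO array lay above every WT array, as for 8.49% of all genes, and each had an unadjusted p under 0.05, as 8.38% of all genes did, while 0.0749% were called. At 20 weeks H2-Aa differed by -1.39 ± 0.30 (0.0634) and Cd74 by -0.55 ± 0.17 (0.16), the 2 class II members whose AIM-KO arrays lay wholly below WT, as for 8.75% of all genes, and 0.157% of genes were called. B2m lay wholly above WT, as did 6.98% of all genes (0.11 ± 0.09). Without WT 20 weeks replicate 2 the difference of H2-Aa was -1.40 and passed (adjusted p = 0.0193). All class II members but Ciita had an unadjusted p under 0.05 there, as did 13.4% of all genes.

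The difference between the genotypes in the diet effect itself was called for no member at either time by limma. At 12 weeks it was 0.45 ± 0.42 for H2-Aa (adjusted p = 0.789), with no member at an unadjusted p under 0.05, and 0.00681% of all genes were called. At 20 weeks it was -1.83 ± 0.42 for H2-Aa (0.178), -1.27 ± 0.43 for H2-Eb1 (0.342), -0.97 ± 0.33 for H2-Ab1 (0.356) and -0.68 ± 0.24 for Cd74 (0.366). These 4 had an unadjusted p under 0.05, as 10.2% of all genes did, and no gene of the table was called. Without WT 20 weeks replicate 2, the Xist-high WT array, the value of H2-Aa was -1.84 (adjusted p = 0.0432). Genotype at 20 weeks and high Xist cannot be told apart in that fit. These comparisons and those with chow share their groups, so their values are given side by side and not as separate evidence.

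Class II was then set against class I by subtracting the log2 value of B2m on the same array from every gene. In AIM-KO at 12 weeks 6 of 7 class II members changed by more than B2m, where 10.5% of all genes were called higher, with H2-Eb1 at 1.72 ± 0.31 (adjusted p = 0.000748) and Cd74 at 1.20 ± 0.18 (0.000148). H2-DMa stood at 0.99 there, and at 0.55 with quantile normalization (adjusted p = 0.118), which ended its call. In WT at 12 weeks the same held for 4 of 7 (2.57% of all genes), with H2-Aa at 1.19 ± 0.30 (0.0287) and Cd74 at 0.66 ± 0.18 (0.0479). In AIM-KO at 20 weeks it held for none (4.34% of all genes), and H2-Aa stood at 0.00 ± 0.30 (0.998). In WT at 20 weeks it held for 6 of 7 (10.2% of all genes), with H2-Aa at 1.87 ± 0.30 (0.00029). The all-gene median after the subtraction at 20 weeks was 0.12 in AIM-KO and 0.11 in WT. The count in WT at 12 weeks was 0 to 4 when 1 array was left out: 0 without any of the WT chow arrays or WT 12 weeks replicate 1, and 2 without WT 12 weeks replicate 2.

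The class I members did not move alike. Tap1 changed by more than B2m in all 4 diet comparisons, by 0.97 ± 0.18 in AIM-KO (adjusted p = 0.00108) and 0.79 ± 0.18 in WT (0.0156) at 12 weeks, and by 0.66 ± 0.18 in AIM-KO (0.036) and 1.11 ± 0.18 in WT (0.000361) at 20 weeks. With Tap1 in place of B2m, few class II members stood apart, while the median over all genes was -0.87 in AIM-KO and -0.80 in WT at 12 weeks, and -0.55 in AIM-KO and -1.002 in WT at 20 weeks. In AIM-KO at 12 weeks H2-Eb1 (0.75 ± 0.29, adjusted p = 0.0305) and H2-Aa (0.73 ± 0.29, 0.0334) were higher than Tap1, where 1.52% of all genes were. In WT at 12 weeks none was (0.769% of all genes). In AIM-KO at 20 weeks none was higher (1.20% of all genes), and H2-Aa stood at -0.66 ± 0.29 (0.0762). In WT at 20 weeks H2-Aa was higher than Tap1 (0.76 ± 0.29, 0.0249; 1.23% of all genes), and Ciita was lower (-1.19 ± 0.33, 0.00293), as 71.5% of all genes were.

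**Figure D4:**
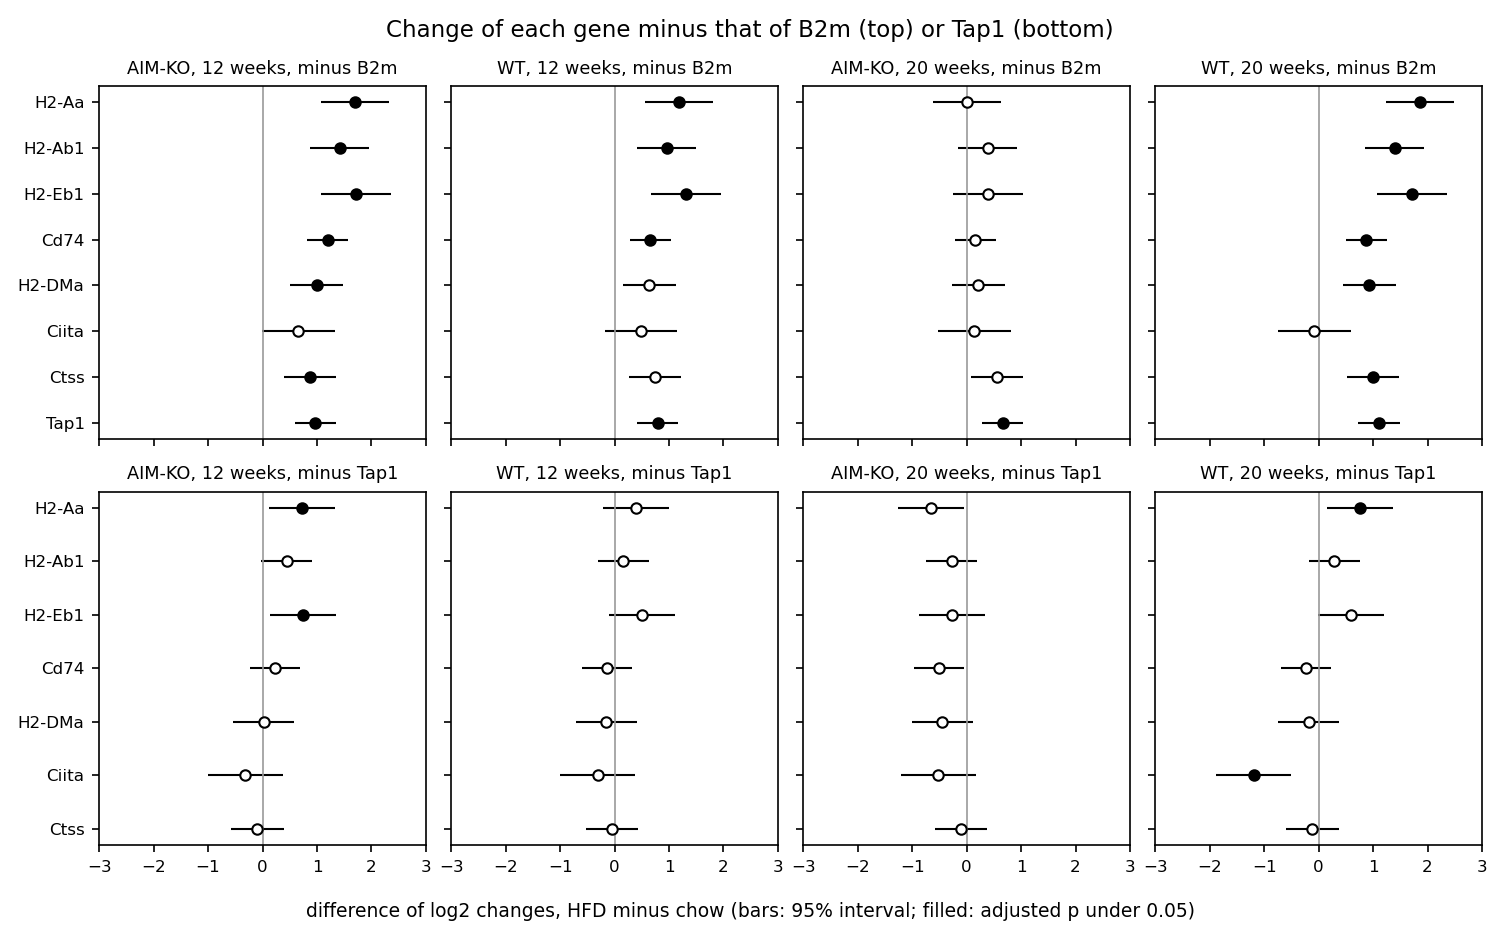
Change of each gene on the high-fat diet minus the change of B2m (upper row) or Tap1 (lower row), on the log2 scale with 95% intervals, for both genotypes at 12 and 20 weeks; filled points had an adjusted p under 0.05. Against B2m the filled points lie right of 0 everywhere, and in AIM-KO at 20 weeks only Tap1 is filled. Against Tap1 most intervals include 0.

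Other probe sets of the same genes were compared without a test. In AIM-KO the 3 further sets of H2-Aa had differences from chow of 1.72 to 1.96 at 12 weeks and 0.20 to 0.73 at 20 weeks. The 2 further sets of H2-Ab1 had 1.69 and 1.75 at 12 weeks and 0.21 and 0.13 at 20 weeks. In WT at 12 weeks the further sets of H2-Ab1 had 0.80 and 0.65, below the 0.96 of the set used. In AIM-KO the second set of H2-DMa had 0.56 at 12 weeks and 0.55 at 20 weeks, unlike the set used, which had 0.13 at 20 weeks. The further set of B2m had -0.16 and -0.07 at these times. The other 3 sets of Tap1 averaged 2.61 to 4.77 and the other 2 of Ciita 6.12 and 7.87, too dim to compare. The 4 sets of H2-Aa carry names (_x_at or _s_at) by which the maker marks probes that may bind other transcripts. So do the set used for H2-Ab1 and further sets of H2-Ab1, H2-DMa and Tap1. Binding to other transcripts was not tested.

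Another 16 genes of the class II route were followed, and all had a value. In AIM-KO at 12 weeks 5 rose and 1 fell, where 11.4% of all genes were called higher and 6.78% lower. Lgmn, an endosomal protease, rose by 1.15 ± 0.18 (adjusted p = 0.00024), the costimulator Cd86 by 1.05 ± 0.25 (0.00579) and the thiol reductase Ifi30 by 0.88 ± 0.15 (0.000574). In WT at 12 weeks 1 rose, the protease Ctsd (0.47 ± 0.11, 0.0165), where 3.52% of all genes did. In AIM-KO at 20 weeks none of the 16 was called, where 4.29% of all genes were called higher. In WT at 20 weeks 5 rose, where 8.72% of all genes did, among them Lgmn (0.86 ± 0.18, 0.00339), Cd86 (0.77 ± 0.25, 0.043) and Ctsd (0.74 ± 0.11, 0.000232). The list median was 0.16 in AIM-KO and 0.06 in WT at 12 weeks, and 0.09 in AIM-KO and 0.17 in WT at 20 weeks. From 12 to 20 weeks 3 fell in AIM-KO, where 2.12% of all genes did: Ifi30 by 0.74 ± 0.15 (0.0122), Lgmn by 0.68 ± 0.18 (0.0452) and Ctsd by 0.50 ± 0.11 (0.0178). None of the regulators in the list was called on the diet in AIM-KO at 12 weeks or WT at 20 weeks: Rfx5, which binds the class II promoter, had changes of 0.10 ± 0.20 (0.804) and -0.01 ± 0.20 (0.988).

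Of 21 other class I genes 18 had a value. In AIM-KO at 12 weeks 4 rose and 1 fell, where 11.4% and 6.78% of all genes did. Psmb9, a subunit of the immunoproteasome, rose by 0.68 ± 0.21 (adjusted p = 0.0274), Tapbp (tapasin) by 0.65 ± 0.15 (0.00448), the nonclassical H2-M3 by 0.62 ± 0.20 (0.0356) and the heavy chain H2-D1 by 0.53 ± 0.13 (0.0093). The heavy chain H2-K1 had a change of 0.18 ± 0.09 (0.198). In WT only Psmb9 was called at 12 weeks (1.01 ± 0.21, 0.0066), where 3.52% of all genes were called higher. None was called in AIM-KO at 20 weeks, where 4.29% of all genes were called higher and Psmb9 had a change of 0.61 ± 0.21 (0.0842). At 20 weeks 2 rose in WT, Psmb9 (1.19 ± 0.21, 0.000722) and H2-M3 (0.59 ± 0.20, 0.0498), against 8.72% of all genes, and 2 fell, against 5.77%, among them the chaperone Calr (-0.51 ± 0.15, 0.0245). List medians ranged from 0.09 to 0.14 in the 4 diet comparisons.

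Genes of the interferon gamma axis, known to induce Ciita and the class II genes, numbered 14, with values for 12; Ifng itself was under 15 on all arrays. In AIM-KO at 12 weeks 6 rose, where 11.4% of all genes did, among them the GTPase Gbp2 (2.03 ± 0.35, adjusted p = 0.000577) and the chemokines Cxcl10 (1.33 ± 0.26, 0.00158) and Cxcl9 (1.24 ± 0.31, 0.00864). In WT at 12 weeks Cxcl9 (1.33 ± 0.31, 0.0151) and Cxcl10 (1.02 ± 0.26, 0.0281) rose, where 3.52% of all genes did. In AIM-KO at 20 weeks none of the 12 was called, where 4.29% of all genes were called higher. In WT at 20 weeks 3 rose, where 8.72% of all genes did: Gbp2 (1.79 ± 0.35, 0.00206), Cxcl9 (1.75 ± 0.31, 0.000831) and Cxcl10 (1.09 ± 0.26, 0.00855). In AIM-KO Gbp2 fell by 1.52 ± 0.35 from 12 to 20 weeks (0.0223).

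Over the 18 arrays the genes whose log2 level followed the mean of H2-Aa, H2-Ab1, H2-Eb1 and Cd74 most closely were Tyrobp (r = 0.963), Cd52 (0.962), Fcer1g (0.961), Plek (0.955), Fermt3 (0.942), Ms4a6d (0.941), Gbp2 (0.939) and Evl (0.938). Those closest to B2m were Saa4 (0.872), Mdh1 (0.814), Scp2 (0.806), Cstdc2 (0.801) and Chpt1 (0.788). These arrays share 6 groups, so the correlations describe these data and carry no test.

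In whole liver, more cells of a type and more RNA per cell cannot be told apart. Summed markers of monocytes and recruited macrophages (9 of 10 on the array) followed the class II genes between groups. Their sum was 1549 to 1830 on chow, 3012 to 3437 at 12 weeks and 1789 to 2406 at 20 weeks in AIM-KO, and 1760 to 1908, 1961 to 2932 and 2874 to 3261 at the same times in WT. This linear sum is made up mostly of Csf1r and Lyz2, with medians of 1491 and 500 over the 18 arrays. Ccr2 and Gpnmb, with medians of 32.8 and 29.4, hardly weigh in it. Of the 9 tested, 6 rose in AIM-KO (11.4% of all genes did) and 2 in WT (3.52%) at 12 weeks, and none in AIM-KO (4.29%) and 6 in WT (8.72%) at 20 weeks. The chemokine receptor Ccr2 rose by 1.95 ± 0.36 in AIM-KO (adjusted p = 0.00105) and 1.90 ± 0.36 in WT (0.0043) at 12 weeks. Not all of the list went this way: Trem2, a receptor of lipid-associated macrophages, had a change of -1.34 ± 0.46 in WT at 20 weeks (0.0554), with every array below chow, and Itgam of -0.07 ± 0.47 (0.948). Both were dim, at 1.2 to 22.1 for Trem2 and 2.5 to 19.9 for Itgam over the 18 arrays. The lysosomal marker Cd68 fell by 0.90 ± 0.17 from 12 to 20 weeks in AIM-KO (0.00868).

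The dendritic cell sum (9 of 10 markers) moved in part with them, at 95.1 to 130.0 on chow, 182 to 283 at 12 weeks and 156 to 175 at 20 weeks in AIM-KO, and 134 to 140 on chow, 133 to 198 at 12 weeks and 186 to 225 at 20 weeks in WT. Ccr7 was under 15 on all arrays. In AIM-KO at 20 weeks Clec10a (1.32 ± 0.38, adjusted p = 0.0449) and Zbtb46 (0.65 ± 0.19, 0.0423) were called higher than on chow, where 4.29% of all genes were. In WT at 20 weeks Itgax (1.36 ± 0.43, 0.0399) and Zbtb46 (0.64 ± 0.19, 0.0267) were, where 8.72% of all genes were. Siglech (-0.27), Cd209a (-0.14) and Xcr1 (-0.07) had negative changes there and were not called. Zbtb46 in AIM-KO differed from WT by -0.34 ± 0.19 on chow (0.725) and by -0.33 ± 0.19 at 20 weeks (0.459). B cell sums (9 of 10) ranged from 150.3 to 232 and overlapped between each diet group and its chow group. T cell sums (7 of 8) ranged from 55.4 to 106 and overlapped likewise, and the defining genes Cd79a and Cd4 were under 15 on all arrays. Other markers of these lists were dim too, with medians of 8.1 for Cr2, 11.65 for Blk, 5.85 for Cd3e and 8.75 for Cd3d. Bank1 (54.65) and Cd8a (27.4) were the brightest of their lists. With markers this dim, the overlap says little about B or T cells. Of the 8 B cell markers tested, 1 was called in any diet comparison, Cd22 in AIM-KO at 12 weeks (adjusted p = 0.0246). In that comparison 11.4% of all genes were called higher and 6.78% lower. Kupffer cell sums (8 of 8) overlapped between chow and diet in AIM-KO, at 1136 to 2149, and in WT they were 1507 to 1543 on chow, 1419 to 2117 at 12 weeks and 1587 to 2389 at 20 weeks. The liver endothelium sum (6 of 6) moved in part with the class II genes, at 990 to 1106 on chow, 1303 to 1527 at 12 weeks and 1101 to 1181 at 20 weeks in AIM-KO, and 1137 to 1255, 1121 to 1419 and 1290 to 1567 at the same times in WT, where 12 weeks overlapped with chow. In WT only Lyve1 of the 6 was called at either time. Stab2 had changes of -0.22 and -0.23 at 12 and 20 weeks there, and Kdr of -0.19 at 12 weeks. Lyve1, a hyaluronan receptor of sinusoidal endothelium, rose by 1.39 ± 0.22 in AIM-KO (adjusted p = 0.000217) and 1.48 ± 0.22 in WT (0.000389) at 12 weeks. At 20 weeks Lyve1 had a change of 0.05 ± 0.22 in AIM-KO (0.939) and rose by 1.97 ± 0.22 in WT (8.5e-06), and it was lower in AIM-KO than in WT by the direct test (-1.13 ± 0.22, 0.0415). The hepatocyte sum (9 of 10) was 53426 to 57165 in AIM-KO at 12 weeks, below the 59368 to 82105 of the other 5 groups, and 6 of 9 hepatocyte markers fell there against chow, where 6.78% of all genes did. The part of these cell types in the class II changes was not tested.

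**Figure D5:**
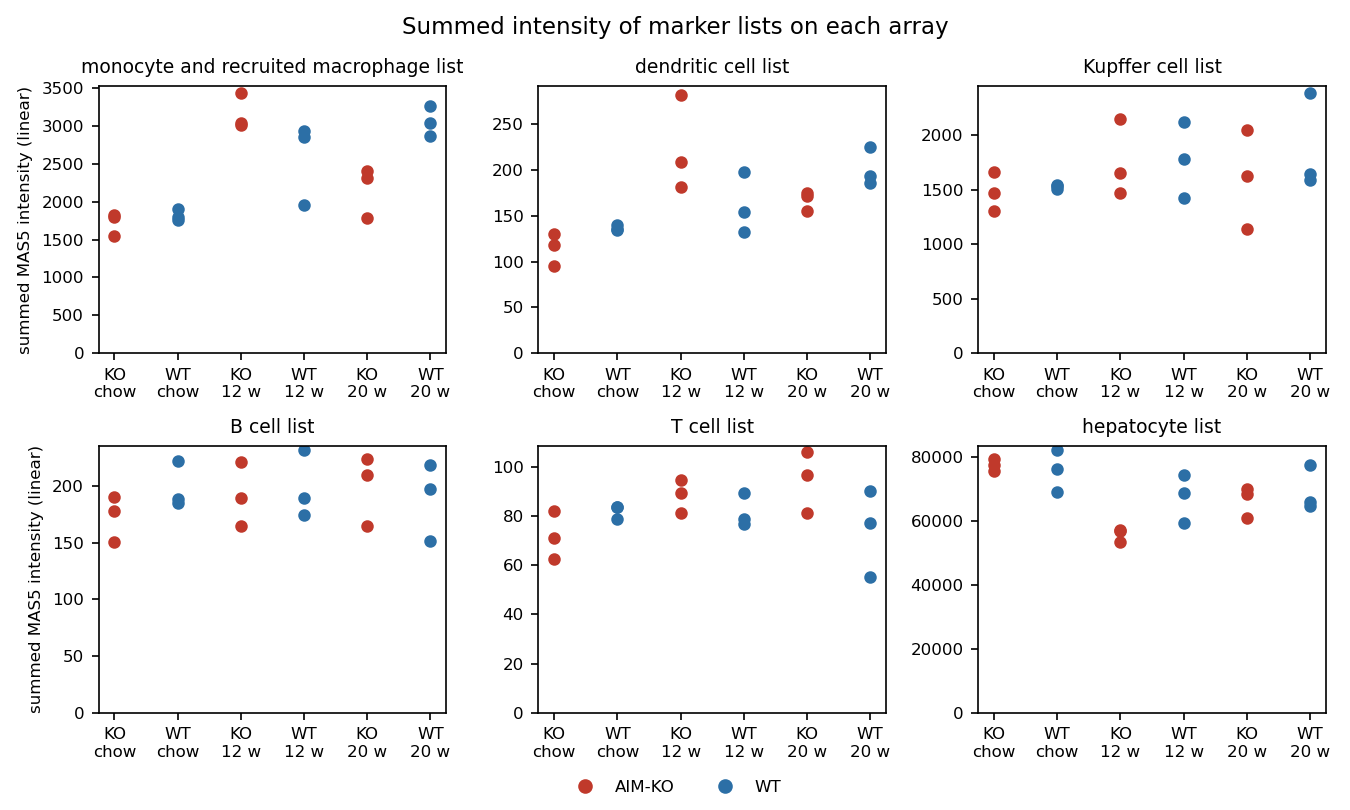
Summed linear MAS5 intensity (vertical axes from 0) of 6 marker lists, 1 point per array, for AIM-KO (red) and WT (blue) livers on chow and after 12 and 20 weeks (w) of the high-fat diet. The monocyte and recruited macrophage sum is highest in AIM-KO at 12 weeks and WT at 20 weeks and lower in AIM-KO at 20 weeks, and the B cell and T cell sums overlap between most groups.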

How the data were processed

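Per the labels' protocols, liver RNA was extracted with Trizol, and 100 ng went into biotin labelling for Affymetrix Mouse Genome arrays. The deposited values are linear probe set intensities, made by the authors with MAS5 per the submitters' processing notes, whose version was not given. Each array had a 2% trimmed mean of 100. Symbols came from the platform annotation, updated through the entrez id for 34741 of 34945 probe sets with 1 gene; 932 with several genes and 9160 with none were left out. Intensities became log2(value + 3.3), the 20th percentile of all values, so changes of dim genes are understated. Probe sets were kept where 3 or more arrays exceeded their own 40th percentile, and each gene's brightest set was used. Group means were fitted over all 18 arrays with limma 3.58.1 (trend in the prior variance, Benjamini-Hochberg) and checked on simulated data. The number of arrays limits the precision. Arrays of the same replicate number correlated weakly (5 of 45 correlations of deviations over 0.1, median 0.04) and were not treated as paired. Pairing was not tested. Members, lists and named genes (all members; per list up to 3 called genes of largest change, otherwise the smallest p; the 8 and 5 most alike genes; others named for their role in the pathway or to make up a count) were chosen with earlier results of these data known.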

Additional observations from a re-analysis of the deposited data

Results flagged for a closer look

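The change from 12 to 20 weeks of the high-fat diet differed between the genotypes for several members, a comparison chosen after the data were seen. The AIM-KO change minus the WT change was -2.28 ± 0.42 for H2-Aa, -1.37 ± 0.33 for H2-Ab1 and -1.16 ± 0.24 for Cd74 (limma, adjusted p = 0.0139, 0.0476 and 0.0262). Of all genes 1.04% were called lower. The call of H2-Ab1 was lost in 6 of 10 other settings. That of H2-Aa was lost with the Xist term, and that of Cd74 with the Xist term and with the actin term. Of 12 fits without 1 array, 8 kept the call of H2-Aa, 5 that of Cd74 and 3 that of H2-Ab1. For H2-Aa every AIM-KO array of 20 weeks lay below the AIM-KO mean at 12 weeks, by 2.54 to 1.04, and every WT array above the WT mean, by 0.28 to 0.85. H2-Eb1 (-1.63, adjusted p = 0.0652) and Tap1 (-0.53, adjusted p = 0.229) were singled out because their arrays likewise moved in opposite directions in the genotypes, without passing the test. High Xist was found on all 3 AIM-KO arrays of 20 weeks and on WT 20 weeks replicate 2. Apart from that WT array, genotype at this time and what goes with high Xist cannot be told apart.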

How the results depend on the processing

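Of 43 called values of members, none changed sign in any setting run; 104 calls were lost and 11 gained over all settings. The calls of H2-Aa, H2-Ab1, H2-Eb1 and Cd74 in AIM-KO at 12 weeks and in WT at 20 weeks were kept in all 10 other settings and in all 6 fits without 1 array. Leaving out 1 array in turn gave class II counts of 5 to 6 (AIM-KO) and 0 to 5 (WT) at 12 weeks, 0 (AIM-KO) and 4 to 6 (WT) at 20 weeks, and 2 to 5 from 12 to 20 weeks in AIM-KO. It gave 0 to 1 for AIM-KO against WT at 20 weeks, and likewise for the genotype difference in the 20 week diet effect. Each had 1 without WT 20 weeks replicate 2, the Xist-high WT array. The counts were 0 to 4 for the difference of the step from 12 to 20 weeks, and 0 to 4 in WT at 12 weeks relative to B2m. Relative to B2m, WT at 12 weeks had 2 calls with no filter on dim probe sets; with Tap1 in place of B2m the counts were 2 (AIM-KO) and 0 (WT) at 12 weeks and 1 (WT) at 20 weeks. With the Xist term the counts from 12 to 20 weeks were 0 in AIM-KO and 0 for the difference between the genotypes, which was 1 with the actin term; the causes were not tested. Samples of the same replicate number correlated over 0.1 in 5 of 45 pairs, and 9 of 18 arrays correlated best with their own number. Whether the numbers mark a pairing or a batch was not tested. With the replicate number as a block, 1 class II member was called for AIM-KO against WT at 20 weeks (H2-Aa, adjusted p = 0.0471) against 0 without it. The block also brought Ctss in WT at 12 weeks past the test (adjusted p = 0.0498, and 0.0252 relative to B2m), for 5 calls in place of 4 in each case, and it changed no other call. Quantile normalization moved the share of higher calls in AIM-KO against WT at 12 weeks to 28.6% of 7 calls, against 54.5% of 11. Ciita did not pass the stricter filter and has no value there. Signal limits Ciita, which was dim, and B2m, which was near the brightest values.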
